A study of Homo sapiens with 10 samples.

Results

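The EGR factors EGR1, EGR2 and EGR3, their repressors NAB1 and NAB2, the transcription factor SRF and the immediate early response genes IER2, IER3 and IER5 were followed through acute sulforaphane (SFN) treatment. These 9 genes were selected by symbol from the 28380 genes counted, and each had 1 row. RPE-1 cells, an established human retinal pigment epithelial line immortalized with telomerase, received SFN (25 µM by the study's methods) or the vehicle DMSO for 4 h, with 5 replicate libraries per treatment and no other agent or genetic change in either group. The study's methods call the replicates of its experiments independent and count cells for each RNA replicate, without saying whether these were cultured or treated on separate occasions, and the labels do not say. The p-values measure the spread between these libraries, which may be partly technical. Because RNA came from whole cultures, a higher level per cell and a larger share of expressing cells cannot be told apart. Genes with too few counts were removed, which left 13378 genes and 7 of the 9 members for testing, and EGR2 and EGR3 fell under this filter. A gene was called when its adjusted p was under 0.05, and levels are given as CPM, counts relative to library sizes scaled by the TMM method.

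EGR proteins are zinc finger transcription factors that bind GC-rich sites, and their genes belong to the immediate early class, which is switched on without new protein synthesis when cells meet growth factors or stress. NAB1 and NAB2 bind EGR proteins and repress their activity, and NAB2 is known as a target of EGR1, which closes a feedback loop. SRF binds the CArG box of the serum response element, where it works with ternary complex factors of the ELK family, which respond to ERK signaling, or with the myocardin-related factors MRTFA and MRTFB, which respond to actin dynamics. IER2 encodes a nuclear protein, IER3 a stress-inducible regulator of survival, and IER5 a protein that promotes the activity of the heat shock factor HSF1.

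The promoters of these genes were searched for the sites of their own factors in the 250 bases before each RefSeq start site (build GRCh38.p14), and 7 of the 9 members matched that table. The motifs were the CArG box, the EGR sites GCGGGGGCG and GCGTGGGCG, and the heat shock element core GAANNTTC, each on both strands. The sequences below are shown because they carry the CArG boxes or EGR sites that link the members to each other. They are written 5′ to 3′ on the strand of the gene, and capitals mark the CArG boxes and EGR sites. EGR1 is at chr5:138465229-138465478 on the plus strand, the EGR2 start site with a box at chr10:62816367-62816616 on the minus strand, SRF at chr6:43171019-43171268 on the plus strand, NAB2 at chr12:57088864-57089113 on the plus strand, and 1 of 3 NAB1 start sites at chr2:190648645-190648894 on the plus strand. The EGR1 and SRF windows end at the GENCODE gene starts given with the values, the NAB2 window ends beyond it, and the EGR2 and NAB1 windows lie inside the GENCODE spans of their genes.
EGR1: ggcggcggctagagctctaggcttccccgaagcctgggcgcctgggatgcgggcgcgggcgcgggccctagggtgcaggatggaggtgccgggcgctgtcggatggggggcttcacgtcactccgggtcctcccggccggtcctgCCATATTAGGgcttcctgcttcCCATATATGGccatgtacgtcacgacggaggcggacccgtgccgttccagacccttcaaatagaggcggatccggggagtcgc
EGR2: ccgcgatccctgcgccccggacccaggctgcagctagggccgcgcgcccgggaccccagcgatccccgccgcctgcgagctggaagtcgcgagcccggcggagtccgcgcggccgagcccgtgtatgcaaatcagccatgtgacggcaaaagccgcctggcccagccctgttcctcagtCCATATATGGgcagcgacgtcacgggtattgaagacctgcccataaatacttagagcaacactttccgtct
SRF: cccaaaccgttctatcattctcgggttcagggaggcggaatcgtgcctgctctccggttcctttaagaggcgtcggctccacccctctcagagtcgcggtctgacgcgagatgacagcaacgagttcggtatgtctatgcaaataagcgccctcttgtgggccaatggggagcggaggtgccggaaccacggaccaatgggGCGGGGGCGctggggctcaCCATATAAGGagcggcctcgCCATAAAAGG
NAB2: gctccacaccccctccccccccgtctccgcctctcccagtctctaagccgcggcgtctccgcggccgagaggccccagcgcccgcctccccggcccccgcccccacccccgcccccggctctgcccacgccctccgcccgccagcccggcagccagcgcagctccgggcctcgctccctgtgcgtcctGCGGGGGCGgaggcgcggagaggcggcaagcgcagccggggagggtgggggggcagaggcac
NAB1: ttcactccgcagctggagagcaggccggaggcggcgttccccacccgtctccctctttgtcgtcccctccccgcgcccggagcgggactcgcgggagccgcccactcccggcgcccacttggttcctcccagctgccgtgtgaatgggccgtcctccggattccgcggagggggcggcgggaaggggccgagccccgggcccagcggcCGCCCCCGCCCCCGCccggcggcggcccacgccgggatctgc

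EGR1 had 2 CArG boxes, CCATATTAGG from 105 to 96 and CCATATATGG from 83 to 74 bases upstream of the start site. EGR2 had the same CCATATATGG from 71 to 62 bases upstream of 1 of its 3 listed start sites and no match upstream of the other two. SRF itself had, upstream of 1 of its 2 listed start sites, 2 boxes, CCATATAAGG from 30 to 21 and CCATAAAAGG from 10 to 1 bases upstream, and an EGR site from 49 to 41 bases upstream. By comparison, 1.44% of the 27303 genes in the table had a CArG box in a window of this length. NAB2 had 1 EGR site, from 62 to 54 bases upstream, and the NAB1 window shown had 2 that overlap each other, from 42 to 34 and from 36 to 28 bases upstream, both on the opposite strand. The window of another NAB1 start site overlaps this one and held the same 2 sites and a GCGTGGGCG, and the remaining NAB1 window had no match. An EGR site was found for 6.50% of all genes. The heat shock element core, present for 7.05% of genes, was found only for IER5 among the members searched. It was GAACATTC, from 226 to 219 bases upstream. EGR3 and IER3 had no window and were not searched. IER2 had none of these letters in its window. These are sequence matches, and binding was not measured.

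SFN raised EGR1 steeply, raised IER2 1.97-fold and lowered IER5, while NAB1, NAB2, SRF and IER3 were not called. Of the 7 members tested, 2 were called higher and 1 lower by edgeR's quasi-likelihood test, against 9.07% and 13.9% of all tested genes, and 4 were not called. The plot of CPM by library shows the 9 members.

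**Figure D1:**
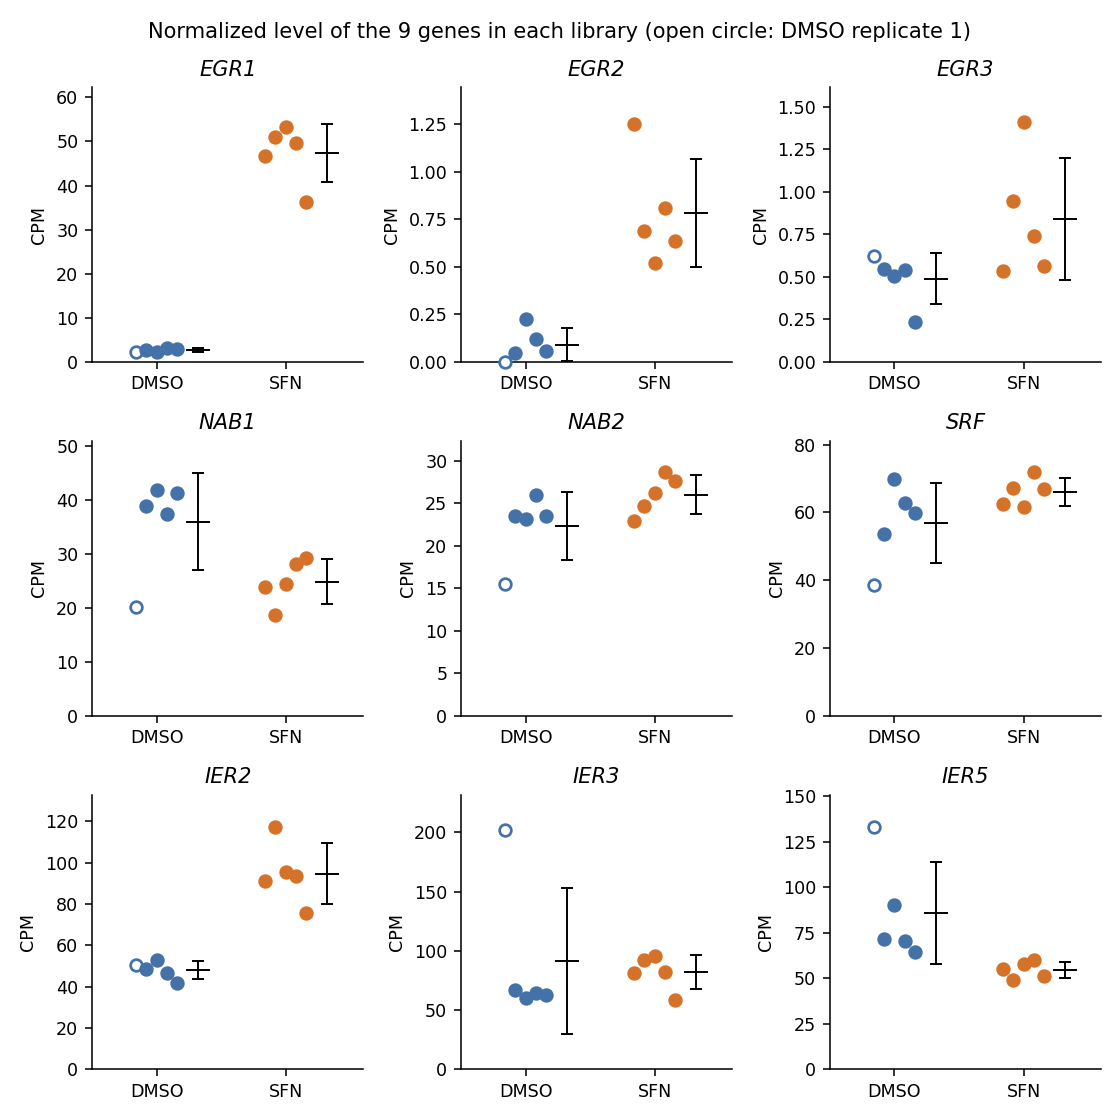
CPM of each gene (vertical axes, starting at 0) in the 5 DMSO and 5 SFN libraries, one point per library, with the group mean and SD as black bars; open circles are DMSO replicate 1. EGR1, IER2 and EGR2 (at most 21 counts) lay above every DMSO library in every SFN library, and IER5 lay below. DMSO replicate 1 stood away from the other DMSO libraries for NAB1, NAB2 and IER3.

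EGR1 occupies chromosome 5 from 138465479 to 138469303 (GRCh38, GENCODE 44, as for all positions that follow). EGR1 had 2.24, 2.60, 2.24, 3.19 and 2.90 CPM in DMSO replicates 1 to 5 and 46.7, 51.1, 53.2, 49.7 and 36.3 CPM in SFN replicates 1 to 5. The groups were far apart, and the lowest SFN library, replicate 5, was more than 10 CPM above any DMSO library. On the log2 scale EGR1 rose by 4.17 (standard error 0.16, adjusted p = 2.4e-08), a 17.9-fold increase, which ranked 23 among the increases of all 13378 genes and 5 by p-value. Relative to its mean, EGR1 varied little within a treatment, with a coefficient of variation of 15.8% in DMSO and 14.0% in SFN.
Genes with a profile like that of EGR1 were sought by the root mean square difference in log2 CPM, relative to the DMSO mean, over the 10 libraries. Among 12573 other genes with a mean of at least 1 CPM, the nearest were HSPA1B (0.25), HSPA1A (0.35) and DDIT4 (0.44), against a median of 2.96. HSPA1A and HSPA1B encode the inducible HSP70 chaperone and are near-identical copies, so reads may be split between them, and DDIT4 encodes an inhibitor of mTORC1. Their log2 fold changes were 4.34 (standard error 0.12) for HSPA1B, 3.84 (standard error 0.15) for HSPA1A and 4.62 (standard error 0.19) for DDIT4. Since the distance is measured from the DMSO mean, nearness to EGR1 mainly reflects a fold change of similar size. Shared regulation was not tested.

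EGR2, which is best known for its role in myelination, lies on chromosome 10 from 62811996 to 62819167. It had 0, 1, 4, 2 and 1 counts in DMSO replicates 1 to 5 and 21, 8, 7, 12 and 9 counts in SFN replicates 1 to 5. Every SFN library was above every DMSO library, although no library exceeded 21 counts. Over all libraries there were 8 counts in DMSO and 57 in SFN, and per scaled library size the ratio was 9.0, with an exact 95% interval of 4.27 to 21.8 that covers counting error only. In the fit with no filter on low counts, the adjusted p was 0.00307 by edgeR's quasi-likelihood test (log2 fold change 3.01, SE 0.63), and at such counts the fitted value depends on edgeR's prior count.
EGR3, on chromosome 8 from 22687659 to 22693480, remained near the limit of detection. It had 10, 12, 9, 9 and 4 counts in DMSO and 9, 11, 19, 11 and 8 counts in SFN, and the groups overlapped. The ratio of SFN to DMSO was 1.66 (exact 95% interval 1.11 to 2.52 for counting error only), and with no filter edgeR gave a log2 fold change of 0.75 (adjusted p = 0.332, standard error 0.44). The interval excludes a ratio of 1 but does not cover the spread between libraries, which had a coefficient of variation of 30.2% in DMSO and 42.8% in SFN. The pair of EGR genes beside EGR1 thus gave few reads in RPE-1 cells under either treatment. EGR4, the remaining family member, was not analysed here.

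The 2 NAB repressors differed from EGR1 and from each other. NAB2, on chromosome 12 from 57089043 to 57095476, had 15.5, 23.5, 23.1, 25.9 and 23.5 CPM in DMSO replicates 1 to 5 and 22.9, 24.7, 26.2, 28.7 and 27.6 CPM in SFN replicates 1 to 5. The groups overlapped, and DMSO replicate 1 was the low library. The NAB2 log2 fold change was 0.22 (standard error 0.14, adjusted p = 0.296), and it was 0.11 (standard error 0.09, adjusted p = 0.351) without DMSO replicate 1. The NAB2 values thus showed no difference beyond the spread of the libraries.
NAB1, on chromosome 2 from 190646746 to 190692766, had 20.1, 39, 41.9, 37.5 and 41.4 CPM in DMSO replicates 1 to 5 and 23.9, 18.7, 24.4, 28.1 and 29.2 CPM in SFN replicates 1 to 5. DMSO replicates 2 to 5 were all above the SFN libraries, and DMSO replicate 1 fell among the SFN values. With all libraries the NAB1 log2 fold change was -0.53 (standard error 0.20) and not called (adjusted p = 0.0747). Without DMSO replicate 1 it was -0.69 (standard error 0.12) and called lower (adjusted p = 3.9e-04).

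SRF, on chromosome 6 from 43171269 to 43181506, had 38.4, 53.6, 69.7, 62.8 and 59.7 CPM in DMSO replicates 1 to 5 and 62.4, 67.2, 61.5, 72.0 and 66.9 CPM in SFN replicates 1 to 5. The SFN libraries lay within or just above the range of DMSO replicates 2 to 5, and DMSO replicate 1 was again the lowest. The SRF log2 fold change was 0.22 (standard error 0.15, adjusted p = 0.335), or 0.10 (standard error 0.09, adjusted p = 0.404) without that library. Expressed as a coefficient of variation, the spread of SRF was 20.8% in DMSO and 6.40% in SFN. DMSO replicate 1 widened the former, since DMSO replicates 2 to 5 had 61.5 ± 6.69 CPM (SD, n = 4).
The genes with profiles nearest to NAB2 were FAM120A (0.06), POLR3D (0.06) and TCAIM (0.07). Those nearest to NAB1 were MTR (0.07), SIK2 (0.08) and HEATR1 (0.09), and those nearest to SRF were SND1 (0.08), FBRSL1 (0.10) and PLEKHM2 (0.10). The medians over all genes compared were 0.46 for NAB2, 0.60 for NAB1 and 0.47 for SRF. None of these 9 genes was called by edgeR's quasi-likelihood test, their adjusted p-values lying between 0.0651 for SIK2 and 0.610 for FBRSL1. That follows from choosing them for their likeness to members that were not called.

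IER2, on chromosome 19 from 13150411 to 13154911, was the other member called higher. It had 50.3, 48.6, 52.8, 46.5 and 41.8 CPM in DMSO replicates 1 to 5 and 91.1, 117, 95.6, 93.7 and 75.7 CPM in SFN replicates 1 to 5. The groups did not overlap, and DMSO replicate 1 was within the range of its group. The IER2 log2 fold change was 0.98 (standard error 0.12, adjusted p = 1.7e-04), a 1.97-fold increase that ranked 486 among all genes, and it was 0.99 without DMSO replicate 1.
IER5, on chromosome 1 from 181088700 to 181092900, moved the other way. It had 133, 71.4, 90.4, 70.3 and 64.5 CPM in DMSO replicates 1 to 5 and 55.1, 49.3, 57.8, 60.0 and 51.4 CPM in SFN replicates 1 to 5. Every SFN library was below every DMSO library, the closest being SFN replicate 4 and DMSO replicate 5. The IER5 log2 fold change was -0.65 (standard error 0.19, adjusted p = 0.0255), and without DMSO replicate 1, the highest library, it was -0.44 (standard error 0.11, adjusted p = 0.00388). The call was lost when DMSO replicate 3 or SFN replicate 1, 2, 3 or 5 was left out, with adjusted p-values from 0.0513 to 0.0576.
IER3, on chromosome 6 from 30743199 to 30744548, had 202, 66.5, 60.4, 64.6 and 63.0 CPM in DMSO replicates 1 to 5 and 81.6, 92.6, 95.3, 82.0 and 58.8 CPM in SFN replicates 1 to 5. DMSO replicate 1 was above all other libraries, and SFN replicate 5 was below all of them. With all libraries the IER3 log2 fold change was -0.15 (standard error 0.33, adjusted p = 0.793). Its direction turned without DMSO replicate 1, to 0.36 (standard error 0.12), and the gene was then called higher (adjusted p = 0.0239).

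**Figure D2:**
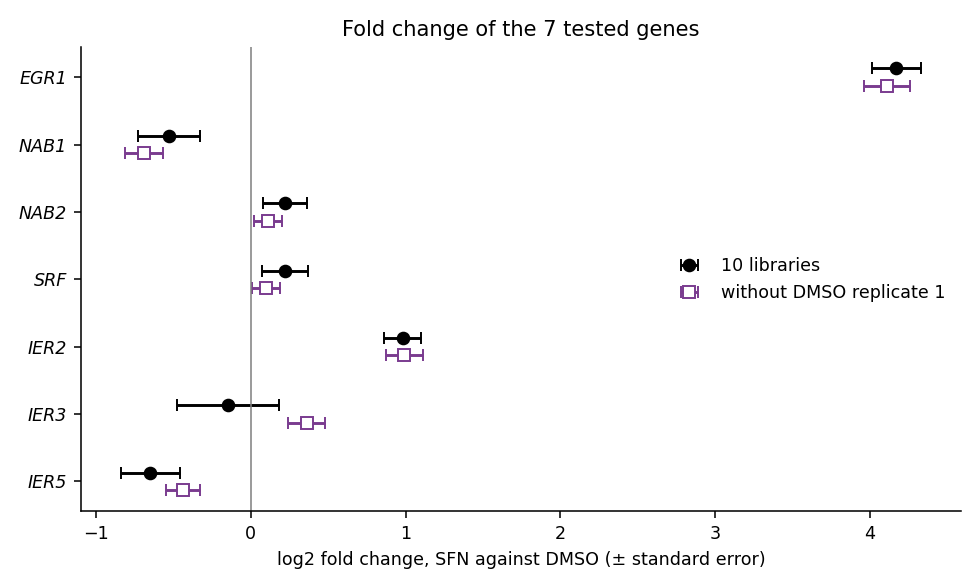
Log2 fold change of SFN against DMSO with its standard error for the 7 tested genes (horizontal axis), from all 10 libraries (filled circles) and without DMSO replicate 1 (open squares). EGR1 at 4.17 and IER2 at 0.98 hardly moved, NAB1 went from -0.53 to -0.69, and IER3 went from -0.15 to 0.36.

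Of the 7 tested members, 3 had no overlap between the groups (EGR1, IER2 and IER5), against 19.9% of all tested genes. DMSO replicate 1 held the lowest DMSO value for NAB1, NAB2 and SRF and the highest for IER3 and IER5. This library also stood apart in the whole data set, with a TMM factor of 0.8864 against 1.06 to 1.077 for the other DMSO libraries and a mean Spearman correlation across genes of 0.935 with its own group against 0.979 to 0.982. Its part in the members' values was not tested other than by leaving it out. Without it, 3 members were called higher (EGR1, IER2 and IER3) and 2 lower (NAB1 and IER5), but the same fit called 22.5% of all tested genes higher and 23.5% lower. Total counts per library ranged from 15689294 to 20666692 in DMSO and from 12375860 to 17308706 in SFN. Of 10 retinal pigment epithelium markers, MITF and OTX2, transcription factors of that lineage, were called lower in SFN (log2 fold changes -1.12 and -0.64), and BEST1 and PMEL were not called (1.17, adjusted p = 0.163, and 0.14, adjusted p = 0.853). BEST1, a chloride channel of this epithelium, was called higher without DMSO replicate 1 (1.68, adjusted p = 0.00961). BEST1 varied widely, with 18.8 ± 13.7 CPM in DMSO and 42.4 ± 36.7 CPM in SFN (SD, n = 5 each), and the groups overlapped. Among the untested markers, RPE65, RLBP1, SERPINF1 and TTR had fewer than 10 counts in every library, LRAT had 3 to 12, and TYR was not analysed here. The summed CPM of the list was 62.4 to 104 in DMSO and 55.8 to 137 in SFN. The blood cell markers PTPRC and CD74 together stayed at or below 0.358 CPM. HMOX1, a known target of SFN through NRF2, rose in SFN (log2 fold change 1.42, adjusted p = 9.9e-06), as did GCLM, an enzyme subunit of glutathione synthesis (log2 fold change 1.30, adjusted p = 2.0e-04). The other NRF2 targets examined, NQO1 (0.31, adjusted p = 0.176), SRXN1 (0.40, adjusted p = 0.647) and TXNRD1 (0.61, adjusted p = 0.0578), were not called, but NQO1 (0.48, adjusted p = 3.3e-04) and TXNRD1 (0.45, adjusted p = 0.00709) were called higher without DMSO replicate 1.

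A ratio of 2 genes within a library does not depend on how the libraries are scaled, so 3 ratios of raw counts were compared. The NAB2 to NAB1 ratio was 0.771, 0.602, 0.551, 0.691 and 0.568 in DMSO replicates 1 to 5 and 0.960, 1.32, 1.08, 1.02 and 0.947 in SFN replicates 1 to 5. All SFN libraries were above all DMSO libraries, DMSO replicate 1 included. The difference in mean log2 ratio was 0.74, from -0.66 ± 0.20 (SD, n = 5) to 0.08 ± 0.19 (SD, n = 5), and an exact two-sided permutation test gave p = 0.00794 (0.00794 after adjustment over the 3 ratios), the smallest value that 5 against 5 libraries allow. NAB reads thus went from mostly NAB1 in DMSO to near equal numbers in SFN.
The EGR1 to NAB2 ratio rose from between 0.0969 and 0.145 in DMSO to between 1.31 and 2.07 in SFN, a log2 difference of 3.93. The EGR1 to SRF ratio rose from between 0.0321 and 0.0583 to between 0.542 and 0.866, a log2 difference that was also 3.93. Both had p = 0.00794 by the same exact permutation test and the same adjusted value. EGR1 alone separated the groups, while NAB2 and SRF, each at a log2 fold change of 0.22, were not called. These 2 ratios therefore restate the rise of EGR1 and add no separate evidence. The adjustment changed none of the 3 p-values because all were equal. These are ratios of reads, and they do not give numbers of transcripts or proteins.

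Neighbouring genes were examined because the use of strand in counting is not given in the sources used here. NAB2 and STAT6, which encodes a cytokine-activated transcription factor, face each other on opposite strands and share 69 bases at their 3′ ends, so reads could be assigned to either gene. STAT6 had a mean of 92.9 ± 14.6 CPM in DMSO (SD, n = 5) and 76.3 ± 4.79 CPM in SFN (SD, n = 5). Its log2 fold change, -0.28 (standard error 0.12, adjusted p = 0.124), was opposite in sign to that of NAB2, and STAT6 was called lower (-0.38, adjusted p = 0.00142) without DMSO replicate 1. NEMP1, which lies 980 bases upstream of NAB2, had a log2 fold change of 0.50 (adjusted p = 0.158). IER3 overlaps the antisense transcripts IER3-AS1 and HCG20, which had at most 8 and 6 counts in a library, and FLOT1, 467 bases away on the same strand, had a log2 fold change of 0.31 (adjusted p = 0.0513). CUL9, which begins 678 bases beyond SRF on the same strand, had a log2 fold change of -0.48 (adjusted p = 0.0712). Without DMSO replicate 1, CUL9 was called lower (-0.58, adjusted p = 0.00463), and FLOT1 (0.30, adjusted p = 0.0155) and NEMP1 (0.31, adjusted p = 0.0413) were called higher. For IER2, STX10 had a log2 fold change of 0.25 (adjusted p = 0.194) and the antisense gene ENSG00000267598 at most 8 counts in a library. ADO, beside EGR2 on the opposite strand, was called lower (log2 fold change -0.46, adjusted p = 0.0132), and the antisense gene ENSG00000284052 at NAB1 had at most 13 counts. Reads of STAT6 outnumbered those of NAB2. The overlapping genes ENSG00000289487 at EGR2 and ENSG00000287296 at IER2 were not analysed here.

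The wider pathway was described with 5 lists of genes, each by its counts of called genes and its median log2 fold change, beside the median of -0.028 over all tested genes and the shares of 9.07% called higher and 13.9% called lower. At an unadjusted p under 0.05 the shares of all tested genes were 14.6% higher and 20% lower, DESeq2 called 12.3% higher and 16% lower, and limma-voom 10% and 11.5%. Among the SRF cofactors, 5 of 6 were tested, 1 was called higher and 2 lower, and the median log2 fold change was 0.14. MRTFB and MRTFA, the actin-sensitive cofactors, were called lower. MRTFB went from 29.8 ± 8.66 to 9.97 ± 2.44 CPM (SD, n = 5 each, log2 fold change -1.58, standard error 0.25, adjusted p = 7.0e-04) with no overlap, and MRTFA from 18.6 ± 4.34 to 9.51 ± 1.64 CPM (SD, n = 5 each, log2 fold change -0.97, standard error 0.19, adjusted p = 0.00338) with overlap. ELK3, a ternary complex factor, was called higher, from 125 ± 5.22 to 172 ± 11.9 CPM (SD, n = 5 each, log2 fold change 0.46, adjusted p = 0.00314). ELK1 and ELK4 were not called, at 0.26 (adjusted p = 0.412) and 0.14 (adjusted p = 0.325). The same 3 genes were called without DMSO replicate 1.
Of 28 actin cytoskeleton genes that SRF and MRTF are known to regulate, 3 were called higher and 0 lower by edgeR's quasi-likelihood test, and at an unadjusted p under 0.05 these counts were 6 and 0. DESeq2 called 6 of the list higher and 0 lower, and limma-voom 1 and 0. The list's median log2 fold change was 0.21, or 0.13 when libraries were scaled by size only and 0.09 by limma-voom. In these 2 alternatives the medians of all tested genes were -0.111 and 0.040. FHL2, a LIM domain cofactor, had the largest increase of the 3 called genes (log2 fold change 1.02, standard error 0.18, adjusted p = 0.00180), followed by CFL1, the actin-severing protein cofilin (0.47, adjusted p = 0.0344), and CNN3, a calponin (0.40, adjusted p = 0.00985). ACTB and ACTG1, the cytoplasmic actins, were at 0.22 and 0.24 and not called. Without DMSO replicate 1, 9 genes of this list were called higher, in a fit that called 22.5% of all tested genes higher.

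The response of other immediate early genes was uneven. Of 23 listed, 19 were tested, and 7 were called higher and 2 lower, against 9.07% and 13.9% of all tested genes. The list's median log2 fold change was 0.28. The median was 0.14 without SFN replicate 1, where 1 gene was called lower, 0.16 without SFN replicate 2 and 0.17 without DMSO replicate 4. ATF3, a stress-induced transcription factor, rose from 0.997 ± 0.325 to 8.32 ± 0.641 CPM (SD, n = 5 each, log2 fold change 3.04, adjusted p = 2.5e-06). FOS, a classic SRF target and AP-1 subunit, had a log2 fold change of 2.26 (standard error 0.25, adjusted p = 6.3e-05) but at most 36 counts in a library. PPP1R15A, which encodes the stress-induced phosphatase subunit GADD34, had 1.90 (adjusted p = 8.5e-07). MCL1 (1.33, adjusted p = 3.3e-05) and MYC (1.13, adjusted p = 3.1e-05) were also called higher by edgeR's quasi-likelihood test. So were ZFP36 (0.63, adjusted p = 0.0486) and CCN1 (0.41, adjusted p = 0.0177). None of the genes called higher in this list had overlapping groups. BTG2, an antiproliferative gene, fell from 3.03 ± 0.956 to 0.387 ± 0.214 CPM (SD, n = 5 each, log2 fold change -2.93, adjusted p = 2.3e-04), and KLF2 had -0.96 (adjusted p = 0.0191) with overlapping groups. JUN, JUNB, FOSB, NR4A1 and DUSP1 were not called, with log2 fold changes from -0.59 for JUNB to 0.12 for DUSP1, but JUN was called lower without DMSO replicate 1 (-0.28, adjusted p = 0.0131). The AP-1 subunit FOSL1, at 0.42 (adjusted p = 0.214) with groups that did not overlap, and NR4A2, at 0.36 (adjusted p = 0.669), were not called either. KLF6 (-0.03, adjusted p = 0.948) and KLF10 (0.07, adjusted p = 0.671) were not called with all libraries. Without DMSO replicate 1, KLF6 was called higher (0.35, adjusted p = 0.0192). IER5L, the gene most like IER5, was at 0.28 (adjusted p = 0.580) with all libraries and 0.69 (adjusted p = 0.00490) without DMSO replicate 1.
Genes reported elsewhere as EGR1 targets did not move as a block. Of 16 listed, 11 were tested, 3 were called higher and 2 lower, and the median log2 fold change was 0.16, or 0.06 without DMSO replicate 1 and 0.06 when libraries were scaled by size only. CDK5R1, the activator of the kinase CDK5, rose from 2.37 ± 0.207 to 9.40 ± 1.18 CPM (SD, n = 5 each, log2 fold change 1.98, standard error 0.14, adjusted p = 2.8e-06). ID3 had 0.85 (adjusted p = 0.0430) with overlapping groups and TGFB1 0.41 (adjusted p = 0.0261). The number called higher was 1 when DMSO replicate 5 or SFN replicate 1, 2, 3 or 4 was omitted. PDGFA, a growth factor chain, fell from 9.11 ± 3.07 to 2.86 ± 0.591 CPM (SD, n = 5 each, log2 fold change -1.67, adjusted p = 3.6e-04), and F3, the tissue factor gene, fell from 454 ± 33.3 to 254 ± 13.7 CPM (SD, n = 5 each, log2 fold change -0.84, adjusted p = 8.4e-05).
Of 13 genes of the NuRD complex, the chromatin remodeler that NAB proteins contact through CHD4, 0 were called higher and 0 lower by edgeR's quasi-likelihood test, 1 was higher and 0 lower at an unadjusted p under 0.05, and DESeq2 called 1 higher and 0 lower, limma-voom 0 and 0. The list's median log2 fold change was 0.04, but -0.06 when libraries were scaled by size only and -0.02 by limma-voom. CHD4 itself was at -0.53 (standard error 0.35, adjusted p = 0.312), or -0.06 (adjusted p = 0.813) without DMSO replicate 1. In that fit MBD3 was called higher (0.45, adjusted p = 0.0237) and GATAD2B lower (-0.55, adjusted p = 0.0147).

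**Figure D3:**
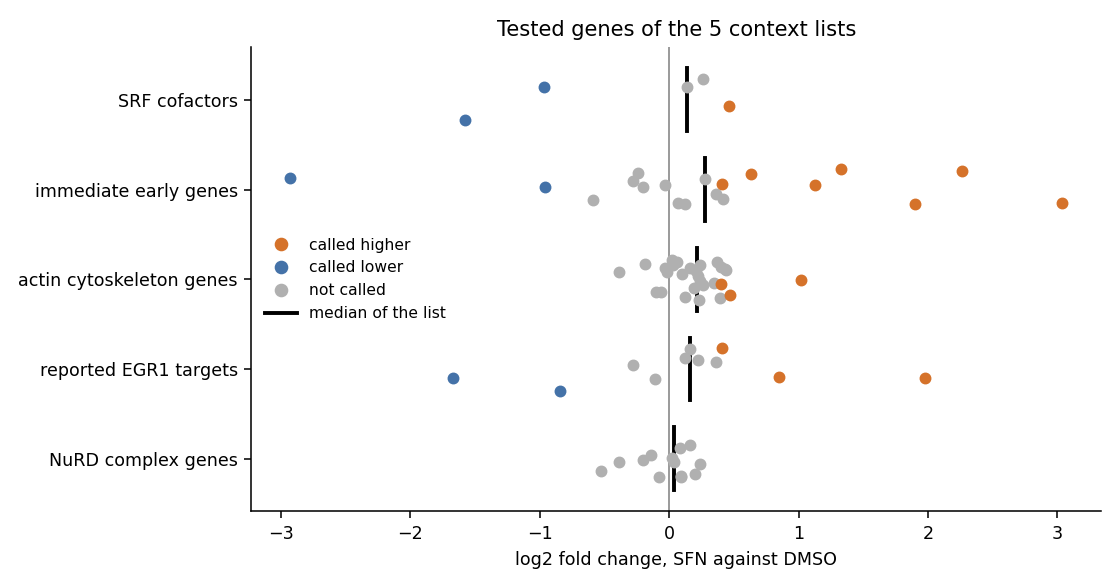
Log2 fold change of SFN against DMSO (horizontal axis) for each tested gene of the 5 lists (rows), with called genes in color and the median of each list as a black bar. Called genes are at both ends of the immediate early and EGR1 target lists, the MRTF genes are the low points among the SRF cofactors, and the NuRD list has no called gene with all 10 libraries.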

How the data were processed

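RPE-1 RNA was sequenced as 10 Lexogen QuantSeq libraries, 5 per treatment. The authors aligned the reads with the Bluebee pipeline, and the submitters' processing notes name STAR, featureCounts and edgeR and the build GRCh38. The authors deposited unnormalized counts for each Ensembl identifier in each library. Software versions, the annotation release, and the use of strand or molecular identifiers are not given in the sources used here.

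Genes were filtered with filterByExpr, libraries scaled by TMM, and treatments compared with edgeR's quasi-likelihood test (edgeR 4.0.16, R 4.3.3) with Benjamini-Hochberg adjustment over all 13378 genes tested. Standard errors of fold changes were derived from the F statistic as |log2 fold change|/√F. Of the 28380 identifiers, 28145 were found in GENCODE 44, which gave positions. Ratios were compared by exact permutation. DESeq2 1.42.0, limma-voom (limma 3.58.1) on quantile normalized values, other scalings, no filter, a replicate block and leaving out each library were alternatives. The repeated measures model of the study was not run. Replicates differed by more than sampling noise (chi-square per degree of freedom 3.53 to 247). On simulated counts for SFN against DMSO (13233 genes, 196 of them changed), the test recovered 96.8% of 4-fold, 59.7% of 2-fold and 6.06% of 1.5-fold changes, and 3.67% of its calls were false, against 24.6% of the calls of DESeq2. The simulation used edgeR's own estimates of the spread between libraries and held no library that departed as a whole. It also changed a far smaller share of genes than was called in the data. Its shares, and the comparison with DESeq2, may therefore not hold for these libraries. The members and lists were chosen with earlier results of these data known. The genes named are the members, in each list the called genes with the 3 largest changes in each direction, neighbours within 5 kb with at least 10 counts, and the 3 genes of nearest profile to EGR1, NAB1, NAB2 and SRF. Other genes of the lists and the markers were named after their values were seen. Protein sequences were not used here.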

Additional observations from a re-analysis of the deposited data

Results flagged for a closer look

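Each group of 5 libraries was examined for a replicate whose gap to its nearest neighbour was large for the range of the group, over the 9 genes and the 3 ratios. Of 24 groups, 3 had such a library, where about 1 in 20 is expected by chance, and in all 3 it was DMSO replicate 1. The gap made up 0.80 of the range for NAB1, where this library had 20.1 CPM. It made up 0.73 of the range for NAB2, where the library had 15.5 CPM, and 0.96 for IER3, where it had 202 CPM. The NAB genes were low and IER3 high in the same library, and the cause was not tested. None of the 3 ratios had such a library.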

How the results depend on the processing

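The calls of EGR1 and IER2 and the absence of a call for NAB2 and SRF held in all 16 alternatives, with log2 fold changes of 4.07 to 4.25, 0.89 to 1.05, 0.11 to 0.30 and 0.10 to 0.30. When each library was left out in turn, the number of genes called ranged from 2383 to 6251 and the number of members called lower from 0 to 2. In the same fits the log2 fold change ranged from -0.69 to -0.45 for NAB1, -0.27 to 0.36 for IER3 and -0.74 to -0.44 for IER5. NAB1 was called only without DMSO replicate 1, and the cause was not tested. IER3 turned positive without that library, by limma-voom on quantile normalized values (0.01) and with the replicate block (0.03), where it was not called. Same-numbered replicates did not pair, since the correlation of their deviations ranged from -0.231 to 0.441 and 2 of 10 samples matched their own number best. With the replicate block 2441 genes were called against 3076. The ratio differences stayed at 0.74, 3.93 and 3.93 in the paired analysis, where an exact sign-flip test of 5 pairs cannot go below p = 0.0625. Scaling by library size only moved the median of all genes from -0.028 to -0.111. The actin list had 1 to 9 genes called higher and the EGR1 target list 1 to 4. EGR2 and EGR3 could be fitted only without the filter, and their low counts widen the intervals of both.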
